A study of Mus musculus with 6 samples.

Results

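The growth hormone and STAT5 axis of the liver was described through 10 genes that were listed by name, with earlier results of these data known. They are the growth hormone receptor Ghr, its kinase Jak2, the transcription factors Stat5a and Stat5b, the feedback inhibitors Socs2 and Cish, the repressor Bcl6, the circulating hormone Igf1, its carrier Igfals, and Selenbp2. All 10 were found among the 39179 Ensembl gene identifiers of the deposited count files, and all 10 passed the filter on low counts that left 11375 genes to test. The 3 NASH and 3 steatosis livers came from C57BL/6J mice given a diet with 60% of its calories from fat for 21 weeks from the age of 5 weeks. Haematoxylin and eosin histology had divided the obese animals into NASH, in which fat storage is joined by inflammation and cell injury, and isolated steatosis. Both groups therefore shared strain, diet and age, no lean mice were analysed here, and the labels give no sex.

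Growth hormone from the pituitary binds GHR on hepatocytes and activates the attached kinase JAK2, which phosphorylates STAT5A and STAT5B. These enter the nucleus and switch on Igf1 and Igfals, whose products carry the growth signal in blood, and Socs2 and Cish, whose products shut the receptor down again. In rodents the hormone is released in pulses in males and more evenly in females, and STAT5 reads this pattern to set the sex-biased expression of many liver genes. BCL6 is a repressor that opposes STAT5 at shared sites.

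The libraries held between 13909238 and 17577354 gene counts in NASH and between 14883514 and 18002095 in steatosis. Mitochondrially encoded genes took 62.0% to 83.9% of the NASH counts and 68.3% to 77.9% of the steatosis counts, and 4 loci with rRNA-like sequence took 22.3% of NASH 3 and 8.96% of steatosis 2 but at most 1.06% of the other libraries. Counts outside both classes ran lower in NASH, at 2185922 to 2719869 per library (15.5% to 17.2%). In steatosis they were 3378730 to 5149189 (21.3% to 28.6%). The depth left for other genes thus differed with group, and its part in the results was not tested. Levels are given as CPM, a gene's count relative to the total of its library after scaling with TMM factors, and fold changes are NASH over steatosis. Summed hepatocyte markers reached 9992 to 12423 CPM in NASH and 11881 to 13299 CPM in steatosis. Sinusoidal endothelial markers summed to 108 to 152 CPM in NASH and 75.5 to 100.4 CPM in steatosis, and stellate cell markers to 47.8 to 62.9 CPM in NASH and 69.5 to 82.9 CPM in steatosis. Macrophage markers lay at 43.3 to 86.2 CPM in NASH and 53.4 to 58.4 CPM in steatosis. Of 10 tested stellate markers 1, Dcn, fell, and edgeR called 0 of 10 endothelial, 13 macrophage and 10 hepatocyte markers. At an unadjusted p under 0.05, which 23.2% of all tested genes reached, 4 endothelial, 1 macrophage and 1 stellate marker were higher and 2 stellate markers lower. The higher stellate marker was Acta2, at 1.95, 1.54 and 3.18 CPM in NASH and 1.29, 0.959 and 0.928 CPM in steatosis (edgeR adjusted p = 0.107). DESeq2 called 1 endothelial and 1 stellate marker, limma-voom 1 stellate marker, and both 0 macrophage and 0 hepatocyte markers. The 7 adipocyte markers summed to 310.4 to 379.4 CPM in NASH and 884 to 1328 CPM in steatosis, and 3 of them, Adipoq, Lep and Plin1, were at 0 in all 6 libraries. Most of the sum was Car3, which hepatocytes also express and which fell to 316 ± 27.0 CPM in NASH, against 1029 ± 178 CPM in steatosis (SD, n = 3 each, edgeR adjusted p = 0.00876). Cfd averaged 26.6 ± 14.7 CPM in NASH and 71.9 ± 48.6 CPM in steatosis (SD, n = 3 each, edgeR adjusted p = 0.128), and Fabp4 averaged 7.81 ± 0.276 CPM in NASH and 6.66 ± 2.42 CPM in steatosis (SD, n = 3 each, edgeR adjusted p = 0.667). The part of cell makeup and of rRNA-like reads in the results was not tested. In bulk liver, fewer cells of a type and less RNA per cell cannot be told apart. Transcripts of the Y chromosome were present in every library, with Eif2s3y at 17.3 to 21.8 CPM in NASH and 17.4 to 19.8 CPM in steatosis, and Xist had at most 1 count. This is the pattern of male livers in both groups.

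Of the 10 genes, Selenbp2 rose in NASH and the other 9 did not pass the test, which was the quasi-likelihood test of edgeR at a p under 0.05 after Benjamini and Hochberg's adjustment over all 11375 genes. Thus 1 of 10 was called, against 4.82% of all tested genes, 1.49% higher and 3.33% lower. DESeq2 and limma-voom, which called 10.3% and 4.64% of their tested genes, each called Selenbp2 alone among the 10. The libraries of the groups overlapped for the 9 genes that were not called, whereas 29.3% of all tested genes did not overlap, 13.1% with NASH above and 16.2% with NASH below. The median log2 fold change of the 10 genes was -0.14, and that of all tested genes 0.01.

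**Figure D1:**
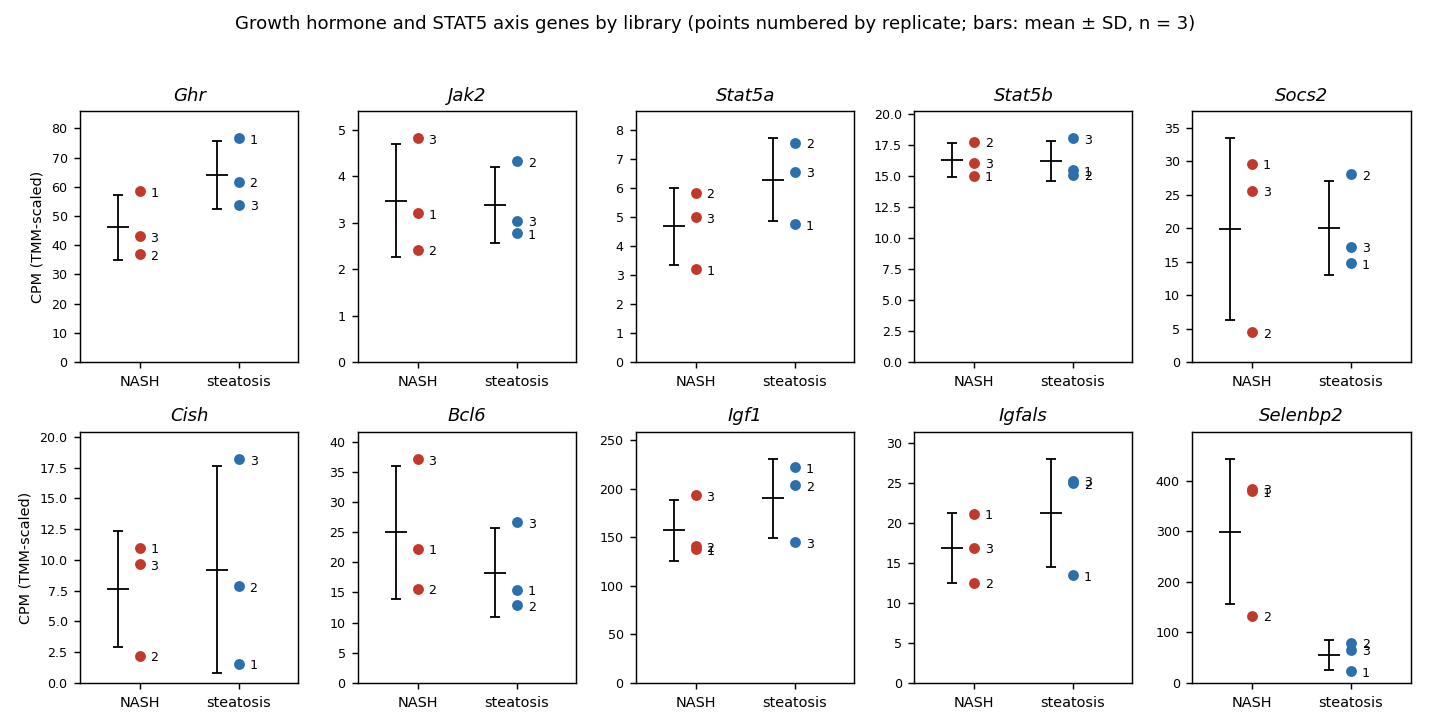
CPM of each of the 10 genes (y axis, linear from 0) in the NASH (left, red) and steatosis (right, blue) livers; points are libraries numbered by replicate, black bars the mean ± SD of 3 libraries. For Selenbp2 the 3 NASH values (133 CPM and above) lie above the 3 steatosis values (78.9 CPM and below), and for the other 9 genes the groups overlap.

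Ghr, on the minus strand at chr15:3317760-3583492 of GRCm38, had 58.5, 36.8 and 43.0 CPM in NASH 1, 2 and 3, against 76.6, 61.6 and 53.9 CPM in steatosis 1, 2 and 3. NASH 1 lay above steatosis 3, so the groups overlapped, with means of 46.1 ± 11.2 CPM in NASH and 64.0 ± 11.5 CPM in steatosis (SD, n = 3 each). The log2 fold change was -0.47 (95% interval -1.02 to 0.07, edgeR adjusted p = 0.278). Jak2, at chr19:29251828-29313080 on the plus strand, was scarce. It had 3.20, 2.41 and 4.81 CPM in NASH livers and 2.77, 4.32 and 3.04 CPM in steatosis livers, from 36 to 53 reads in a NASH library and 45 to 82 in a steatosis library. Its log2 fold change was 0.03 (95% interval -0.64 to 0.69, edgeR adjusted p = 0.967).

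The STAT5 genes lie beside each other on chromosome 11, Stat5b at chr11:100780731-100850724 on the minus strand and Stat5a at chr11:100859351-100885169 on the plus strand. Stat5b, the form known as the main one in liver, had 15.0, 17.7 and 16.1 CPM in NASH and 15.5, 15.1 and 18.0 CPM in steatosis. It was the steadiest of the 10 genes, its highest library exceeding its lowest 1.18 times in NASH and 1.19 times in steatosis. Its log2 fold change was 0.01, and the 95% interval of -0.39 to 0.40 was the narrowest among the 10 genes (edgeR adjusted p = 0.988). Stat5a had 3.20, 5.83 and 4.99 CPM in NASH against 4.74, 7.55 and 6.57 CPM in steatosis, groups that overlapped, with a log2 fold change of -0.43 (95% interval -1.02 to 0.16, edgeR adjusted p = 0.366). Per kilobase of exon, Stat5b stood at 2.94 ± 0.249 CPM in NASH and 2.92 ± 0.288 CPM in steatosis, and Stat5a at 0.655 ± 0.188 CPM in NASH and 0.881 ± 0.200 CPM in steatosis (SD, n = 3 each). The log2 ratio of Stat5b to Stat5a within a library averaged 1.81 ± 0.328 in NASH and 1.37 ± 0.351 in steatosis (SD, n = 3 each, two-sided exact permutation p = 0.3, adjusted p = 0.75 over 6 ratios). With 3 livers against 3 the smallest p this test can give is 0.1. Stretches of 50 bases shared between the STAT5 genes made up 10.98% of the Stat5b and 8.21% of the Stat5a transcript sequence, so some reads could have been placed in either gene, and 72 exon bases of Stat5a overlap Stat3 on the opposite strand.

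Socs2, whose product inhibits and helps degrade the receptor, lies at chr10:95385362-95417180 on the minus strand. It had 29.7, 4.42 and 25.6 CPM in NASH against 14.8, 28.05 and 17.3 CPM in steatosis. NASH 2 was far below every other library, while NASH 1 and steatosis 2 were about level at the top. The highest NASH library exceeded the lowest 6.71 times, a wider range than that of 98.5% of all tested genes. Its log2 fold change of -0.01 (95% interval -1.18 to 1.15, edgeR adjusted p = 0.992) became 0.48 without NASH 2 (edgeR adjusted p = 0.378) and was slightly above 0 with 3 other scalings. A pseudogene, Gm9847, shared 4.19% of the 50-base stretches of Socs2.

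Cish, the other classical feedback inhibitor of STAT5, lies at chr9:107296026-107302784 on the plus strand. It carries a pair of TTCNNNGAA letters, the palindrome that STAT5 dimers recognise, at bases 1 and 12 counted from its RefSeq start site. They are shown here in capitals because no other window of the 10 genes held a pair so close together.
Cish, chr9:107296656-107296681, plus strand: gttTTCCTGGAAagTTCTTGGAAatc
In the RefSeq promoter table (GRCm38.p6, 250 bases before to 50 after a start site), 9 of the 10 genes had at least 1 window, 15 in all. The table held no entry matched to Socs2. The letters TTCNNNGAA, which read the same on both strands and overlap the sequence known for BCL6, were found in 5 of these 15 windows and in 8.30% of the 32851 windows of all genes. The 5 windows belonged to Cish, Igfals and Bcl6, and a match in this window is a description of letters and not of binding.
The Cish counts varied more than those of any other of the 10 genes in steatosis. NASH livers held 10.98, 2.21 and 9.62 CPM, against 1.54, 7.85 and 18.2 CPM in steatosis livers. The highest steatosis library exceeded the lowest 11.8 times, a wider range than in 99.6% of all tested genes. With 25 counts in steatosis 1 and 33 in NASH 2, those libraries were the lowest of their groups, and the log2 fold change was -0.30 (95% interval -1.87 to 1.26, edgeR adjusted p = 0.841). It was 0.70 without steatosis 3 (edgeR adjusted p = 0.575) and 0.16 without NASH 2 (edgeR adjusted p = 0.921). Cish shares exon positions with the transcribed pseudogene Gm17040 on the opposite strand, which had 77 counts over the 6 libraries, and the files do not tell the strands apart.

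Bcl6 lies at chr16:23965052-23988852 on the minus strand. Its second RefSeq start site had 3 TTCNNNGAA matches, at bases -168, -122 and -88, more than any other window of the 10 genes, and that stretch is shown with the matches in capitals.
Bcl6, chr16:23981354-23981458, minus strand: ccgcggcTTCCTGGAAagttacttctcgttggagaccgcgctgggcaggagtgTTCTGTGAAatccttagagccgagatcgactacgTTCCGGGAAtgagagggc
Bcl6 had 22.2, 15.6 and 37.1 CPM in NASH, against 15.4, 12.9 and 26.6 CPM in steatosis. NASH 3 and steatosis 3 were each the highest of their group, and the groups overlapped. The log2 fold change was 0.44 (95% interval -0.32 to 1.21, edgeR adjusted p = 0.484). It came to 0.05 without NASH 3 (edgeR adjusted p = 0.946), and it was -0.15 without both rRNA-rich libraries, NASH 3 and steatosis 2 (edgeR adjusted p = 0.855). Within libraries the log2 ratio of Bcl6 to Stat5b was 0.527 ± 0.694 in NASH and 0.109 ± 0.406 in steatosis (SD, n = 3 each, exact permutation p = 0.4, adjusted p = 0.75 over 6 ratios).

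**Figure D2:**
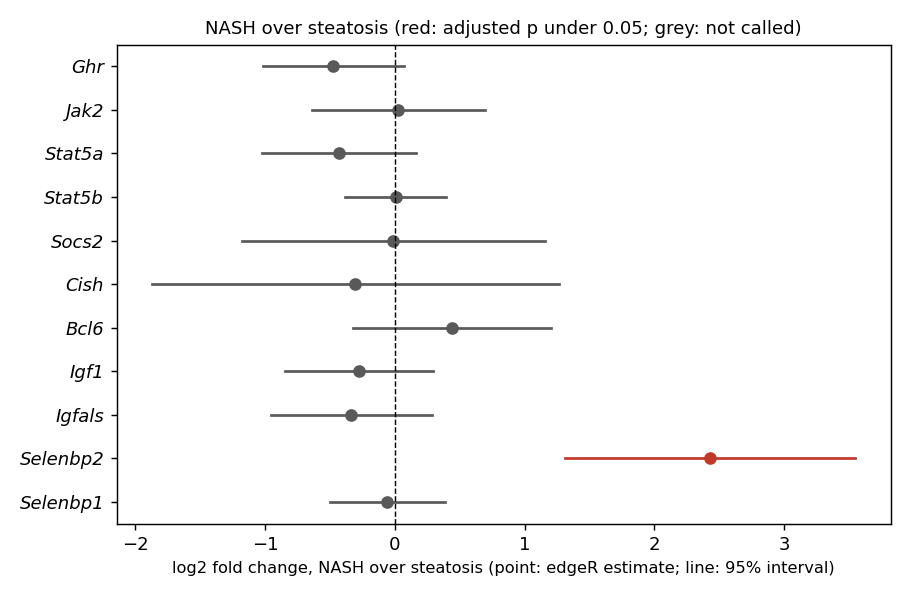
Log2 fold change of NASH over steatosis (x axis) for the 10 genes and the Selenbp2 paralogue Selenbp1 (y axis); points are edgeR estimates, lines their 95% intervals, and the red entry passed an adjusted p of 0.05. The interval of Selenbp2 runs from 1.31 to 3.55, and those of the other entries hold 0.

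Igf1, the growth factor that liver releases in response to growth hormone, lies at chr10:87858265-87937042 on the plus strand. It had 138, 141 and 193 CPM in NASH livers, against 222, 203 and 145 CPM in steatosis livers. NASH 3 was the high library of its group and steatosis 3 the low one of the other, so the groups crossed. Means were 157 ± 31.1 CPM in NASH and 189.9 ± 40.4 CPM in steatosis (SD, n = 3 each), a log2 fold change of -0.27 (95% interval -0.84 to 0.29, edgeR adjusted p = 0.562). Igf1 rested on 1980 to 2125 reads in a NASH library and 3393 to 3895 in a steatosis library, so its counting error was small beside the spread between livers.

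Igfals, at chr17:24865997-24882010 on the plus strand, encodes the subunit that holds IGF1 and its binding protein in a long-lived complex in blood. One TTCNNNGAA match stood in its first RefSeq window and another in its second, both shown in capitals for comparison with the Cish doublet.
Igfals, window 1, chr17:24877598-24877626, plus strand: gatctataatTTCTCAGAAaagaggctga
Igfals, window 2, chr17:24878163-24878191, plus strand: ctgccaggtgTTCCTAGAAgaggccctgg
The gene had 21.1, 12.5 and 16.9 CPM in NASH and 13.4, 24.9 and 25.2 CPM in steatosis. NASH 2 and steatosis 1 were the low libraries and lay close together. Its log2 fold change was -0.34 (95% interval -0.95 to 0.28, edgeR adjusted p = 0.511). The log2 ratio of Igfals to Igf1 averaged -3.23 ± 0.461 in NASH and -3.19 ± 0.775 in steatosis, and that of Igf1 to Ghr 1.77 ± 0.484 in NASH and 1.56 ± 0.152 in steatosis (SD, n = 3 each). Exact permutation tests of these 2 ratios gave p = 1 and p = 0.5 (adjusted p = 1 and 0.75 over 6 ratios).

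Selenbp2, at chr3:94693556-94704413 on the plus strand, encodes a selenium-binding protein of the cytosol that is known to bind acetaminophen. It had 380, 133 and 385 CPM in NASH 1, 2 and 3, against 22.8, 78.9 and 65.0 CPM in steatosis 1, 2 and 3. Every NASH library lay above every steatosis library, though the gap between NASH 2 and steatosis 2 was narrow beside the spread within NASH. Means of 299 ± 144 CPM in NASH and 55.6 ± 29.2 CPM in steatosis (SD, n = 3 each) gave a 5.38-fold increase, or 2.43 on the log2 scale (SE 0.50, 95% interval 1.31 to 3.55, edgeR adjusted p = 0.0275). DESeq2 and limma-voom gave adjusted p of 0.00574 and 0.0275. The call was lost without NASH 1, NASH 3, steatosis 1 or steatosis 2 (edgeR adjusted p = 0.0740, 0.0643, 0.0764 and 0.0676), and without both rRNA-rich libraries (0.116), while the log2 fold change stayed between 2.07 and 2.80 in the fits that left out 1 library.

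Selenbp1, the closest copy of Selenbp2, lies at chr3:94933056-94944758 on the same strand. It had 29.9, 38.9 and 36.3 CPM in NASH and 38.3, 38.8 and 32.5 CPM in steatosis, groups that overlapped, with a log2 fold change of -0.06 (95% interval -0.50 to 0.38, edgeR adjusted p = 0.895). Of the 50-base stretches of Selenbp2, 43.9% also occur in Selenbp1, and 46.3% of those of Selenbp1 occur in Selenbp2. How reads that match both were counted is not given in the sources used here, so the level of each is uncertain. The log2 ratio of Selenbp2 to Selenbp1 was 3.66, 1.77 and 3.40 in NASH livers and -0.74, 1.022 and 0.997 in steatosis livers. This ratio, in which the scaling of a library cancels but for a small prior count, did not overlap between the groups (difference 2.52, two-sided exact permutation p = 0.1, the smallest possible, adjusted p = 0.60 over 6 ratios).

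The start regions of both genes are nearly alike, and their bases before the RefSeq start site are printed because one gene rose in NASH and the other did not pass the test. Over the 300 aligned columns of their windows 272 were identical (90.7%), 16 differed and 12 faced a gap. Capitals mark bases that differ from the other gene or face a gap.
Selenbp2, chr3:94693323-94693572, plus strand: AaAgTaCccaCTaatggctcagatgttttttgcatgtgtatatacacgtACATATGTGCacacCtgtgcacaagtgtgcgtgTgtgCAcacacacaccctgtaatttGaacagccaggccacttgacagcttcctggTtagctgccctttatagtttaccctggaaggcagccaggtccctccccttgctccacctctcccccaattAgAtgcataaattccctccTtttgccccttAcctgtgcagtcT
Selenbp1, chr3:94932835-94933082, plus strand: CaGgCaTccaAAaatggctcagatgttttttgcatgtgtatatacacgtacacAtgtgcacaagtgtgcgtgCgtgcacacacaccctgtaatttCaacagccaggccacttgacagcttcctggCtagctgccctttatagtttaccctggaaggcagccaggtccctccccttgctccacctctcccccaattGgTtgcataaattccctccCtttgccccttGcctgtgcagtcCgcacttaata
Neither window held TTCNNNGAA, which says only that these letters are not in it. The longest run of capitals in Selenbp2 faces a gap in Selenbp1.

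Among 7752 tested protein-coding genes whose mean log2 CPM was 1 or more, the genes with the profile most like that of Selenbp2 over the 6 libraries were Acly, Ces3b and Rgs3. Likeness was measured as the root mean square difference of log2 CPM after each gene was set to its own mean, and came to 0.61 for Acly and 0.64 for both others. Acly, the enzyme that makes cytosolic acetyl-CoA, had 41.3, 22.4 and 27.9 CPM in NASH and 4.19, 4.49 and 5.82 CPM in steatosis. Ces3b, a liver carboxylesterase, had 857, 203 and 573 CPM in NASH and 118, 236 and 220 CPM in steatosis (edgeR adjusted p = 0.0908). Rgs3, a regulator of G protein signalling, had 9.94, 4.22 and 10.3 CPM in NASH and 1.602, 3.36 and 4.86 CPM in steatosis (edgeR adjusted p = 0.0968). NASH 2 was the lowest NASH library for all 4 genes, which follows in part from choosing them by likeness to Selenbp2. It lay below steatosis 2 and 3 for Ces3b and below steatosis 3 for Rgs3.

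Several genes of the axis shared the libraries in which they were low. NASH 2 was the lowest NASH library and steatosis 1 the lowest steatosis library for Jak2, Socs2, Cish, Igfals and Selenbp2, 5 of the 10 genes, where 12.2% of all tested genes had this arrangement. This pattern was chosen after the values were seen. Igf1 did not share it, being lowest in NASH 1 and steatosis 3, nor did Stat5b, lowest in NASH 1 and steatosis 2. The log2 ratio of Socs2 to Cish was 1.42, 0.96 and 1.40 in NASH, against 3.17, 1.82 and -0.08 in steatosis. Cish had 25 counts in steatosis 1 and 490 in steatosis 3. The ratios lay closer together in these NASH libraries than in the steatosis libraries, a difference in spread that was not tested. The group means of 1.26 ± 0.260 in NASH and 1.64 ± 1.63 in steatosis did not differ by exact permutation test beyond this spread (SD, n = 3 each, p = 0.7, adjusted p = 0.84 over 6 ratios).

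**Figure D3:**
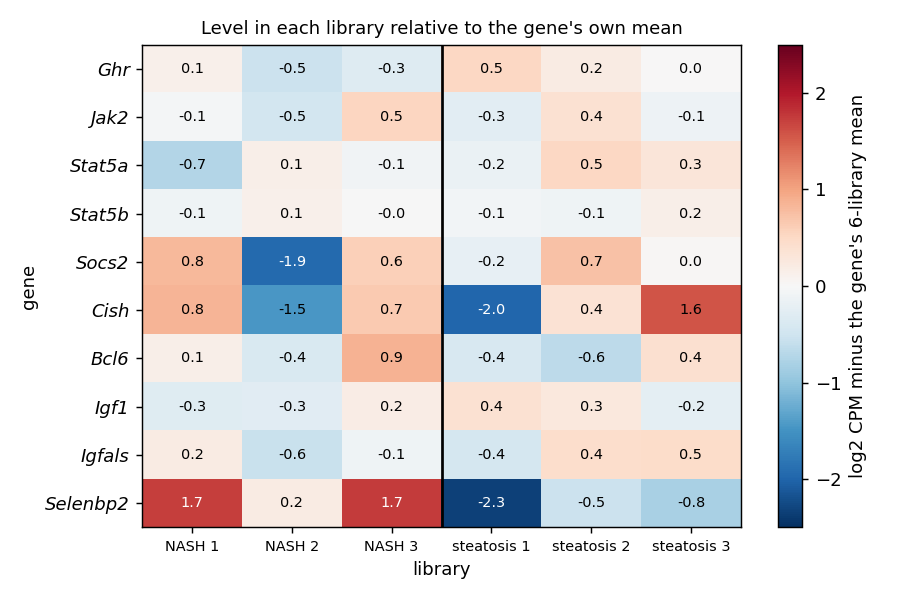
Log2 CPM of each gene (rows) in each library (columns, NASH left of the black line, steatosis right) after the gene's mean over the 6 libraries was subtracted; red is above and blue below that mean. Socs2 and Cish are blue in NASH 2 (-1.9 and -1.5), Cish and Selenbp2 are blue in steatosis 1 (-2.0 and -2.3), and Stat5b stays within 0.2 of its mean.

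Per kilobase of exon, the order of the 10 genes by mean level was led by Selenbp2 in both groups, at 132 ± 63.4 CPM in NASH and 24.5 ± 12.9 CPM in steatosis, followed by Igf1 at 15.9 ± 3.14 CPM in NASH and 19.2 ± 4.08 CPM in steatosis (SD, n = 3 each). Selenbp2 and Igf1 did not overlap in NASH but did in steatosis. Igfals and Ghr came next, at 5.31 ± 1.37 and 5.09 ± 1.23 CPM per kilobase in NASH and 6.69 ± 2.12 and 7.07 ± 1.27 CPM per kilobase in steatosis, and could not be ordered within their spread in either group. The lowest levels were those of Jak2 and Stat5a, at 0.690 ± 0.243 and 0.655 ± 0.188 CPM per kilobase in NASH and 0.671 ± 0.164 and 0.881 ± 0.200 CPM per kilobase in steatosis, which overlapped as well. Exon lengths are the union of all annotated exons, which can exceed the length of the transcript used in liver.

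Beyond the 10 genes, receptor signalling partners and brakes showed no call. Of 26 listed genes 24 were tested and edgeR called 0, with 4 higher and 2 lower at an unadjusted p under 0.05, which 23.2% of all genes reached. DESeq2 called 1 higher and 1 lower, limma-voom 1 higher, and the median log2 fold change was 0.20. The JAK family kinase Tyk2 had 22.7, 19.4 and 21.97 CPM in NASH against 11.2, 12.05 and 15.0 CPM in steatosis, with no overlap (log2 fold change 0.75 with an SE of 0.19, adjusted p = 0.0510 by edgeR). Its p lay at the threshold and passed in 7 of the 10 fits with other settings and all libraries or without the rRNA-rich ones, the lowest with DESeq2 (adjusted p = 0.0178). With 1 library left out, Tyk2 passed only without steatosis 3 (edgeR adjusted p = 0.0435), and the other fits gave up to 0.173. Prlr, the prolactin receptor and a relative of GHR, had 11.05, 11.5 and 12.7 CPM in NASH against 22.3, 18.2 and 17.2 CPM in steatosis (log2 fold change -0.71 with an SE of 0.18, adjusted p = 0.0537 by edgeR, DESeq2 adjusted p = 0.0315). No fit that left out 1 library called Prlr (edgeR adjusted p = 0.0686 to 0.186). Ptpn2, a phosphatase known to act on JAK and STAT proteins, had 7.85, 8.64 and 9.26 CPM in NASH against 5.30, 5.69 and 6.20 CPM in steatosis (log2 fold change 0.58 with an SE of 0.18, adjusted p = 0.0952 by edgeR).

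Among IGF carriers, ligands and receptors, 8 of 15 listed genes were tested, 1 fell and 0 rose, where 3.33% of all tested genes were called lower and 1.49% higher, and the median log2 fold change was -0.33. Igfbp4, a binding protein that withholds IGF from its receptor, fell to 73.0, 83.7 and 100.1 CPM in NASH, against 173, 185 and 158 CPM in steatosis (log2 fold change -1.01 with an SE of 0.22, adjusted p = 0.0343 by edgeR). The groups stood well apart, but no fit that left out 1 of the 6 libraries kept the call (edgeR adjusted p = 0.0541 to 0.135) and with the replicate block (0.0556). Igfbp2 had 10.7, 12.2 and 21.9 CPM in NASH and 40.7, 24.6 and 25.0 CPM in steatosis (log2 fold change -1.02 with an SE of 0.31, adjusted p = 0.0837 by edgeR). It passed without NASH 3 (edgeR adjusted p = 0.0466) but in no fit that left out another library (up to 0.275). Igfbp1, which insulin is known to repress, had 40.6, 17.3 and 19.3 CPM in NASH and 147, 65.2 and 6.31 CPM in steatosis, a spread among steatosis livers larger than the difference of the means (log2 fold change -1.50 with an SE of 0.79, adjusted p = 0.283 by edgeR). Without steatosis 3, the lowest library, Igfbp1 passed at -2.03 (edgeR adjusted p = 0.0347). No fit that left out another library called it, with log2 fold changes up to -0.45 and edgeR adjusted p up to 0.808.

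Liver genes known for higher expression in male mice under pulsed growth hormone gave 2 higher and 0 lower of 28 tested, from 33 listed, against 1.49% higher and 3.33% lower among all tested genes, with a median log2 fold change of 0.47. Several of the 28 are genes of the Mup family, and each counts in this median. At an unadjusted p under 0.05, which 23.2% of all tested genes reached, 7 were higher and 3 lower. The groups did not overlap for 3 genes with NASH above and 3 with NASH below, against 13.1% and 16.2% of all tested genes. C6, a complement component, rose to 52.8, 52.8 and 58.6 CPM in NASH, against 33.8, 18.6 and 20.6 CPM in steatosis (log2 fold change 1.17 with an SE of 0.25, adjusted p = 0.0314 by edgeR). Hsd3b5, a steroid reductase, had 111, 3 and 153 counts in NASH and 5, 10 and 2 counts in steatosis, and NASH 2 lay within the steatosis range at 0.201 CPM. The ratio of the summed and scaled counts was 23.3 (exact 95% counting interval 14.3 to 40.6), an interval that leaves out the spread between livers. The edgeR log2 fold change was 4.56 (SE 1.10, 95% interval 2.13 to 6.99, edgeR adjusted p = 0.0448), and limma-voom gave an adjusted p of 0.347. The C6 call held without steatosis 1 but in no fit that left out another library (edgeR adjusted p = 0.0686 to 0.133). That of Hsd3b5 held without NASH 2 but in no fit that left out another library (0.0924 to 0.150). Oat, ornithine aminotransferase, had lower values in every NASH liver but did not pass, with 188, 55.2 and 71.0 CPM in NASH and 323, 321 and 293 CPM in steatosis (log2 fold change -1.58 with an SE of 0.41, adjusted p = 0.0558 by edgeR). Oat passed in 4 of the 10 fits with other settings and all libraries or without the rRNA-rich ones. With 1 library left out, it passed without NASH 1 (edgeR adjusted p = 0.0135) but in no fit that left out another library (up to 0.159).

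Female-biased liver genes gave 6 lower and 0 higher of 18 tested, against 3.33% of all tested genes called lower, with a median log2 fold change of -1.61. Among the 6, Atp6v0d2 had 1, 1 and 2 counts in NASH and 17, 19 and 23 in steatosis. Cyp2b13 had 3, 11 and 0 counts in NASH and 43, 70 and 49 in steatosis. Both passed the filter on low counts only through steatosis. Such genes could only be called lower, so the filter itself pulls the count of 6 and the median downward. The other 17 of the 35 listed genes were below the filter, 6 of them with 0 counts. The count of 6 lower became 2 without NASH 1, 4 without NASH 3, and 3 without steatosis 1, without steatosis 2 or without both rRNA-rich libraries. Fmo2, a flavin monooxygenase, fell to 5.35, 5.36 and 4.72 CPM in NASH, against 18.4, 13.5 and 18.0 CPM in steatosis (log2 fold change -1.69 with an SE of 0.20, adjusted p = 0.00374 by edgeR). Cyp4a10, a fatty acid hydroxylase, fell to 35.6, 38.6 and 35.4 CPM in NASH, against 699, 227 and 295 CPM in steatosis (log2 fold change -3.48 with an SE of 0.42, adjusted p = 0.00374 by edgeR). The calls of both passed in each fit with 1 library left out. Cyp2a22, a cytochrome P450 with close copies, fell to 5.63, 11.6 and 0.999 CPM in NASH, against 109, 100.4 and 52.3 CPM in steatosis (log2 fold change -3.83 with an SE of 0.65, adjusted p = 0.0133 by edgeR), a call lost without NASH 1 (0.0574). Cyp4a10 and the acyl-CoA thioesterase Acot3 are also known targets of the fatty acid receptor PPARalpha, so membership in the list does not tie them to growth hormone alone. By edgeR Acot3 fell by 2.89 (adjusted p = 0.0247) and Cyp2b13 by 3.04 on the log2 scale (adjusted p = 0.0285), and each lost its call without NASH 1, NASH 3, steatosis 1 or steatosis 2. Acot3 had 1.81, 5.89 and 1.45 CPM in NASH, against 34.8, 26.6 and 8.35 CPM in steatosis. Cyp2b13 rested on 14 counts in NASH and 162 in steatosis, a ratio of 0.128 (exact 95% counting interval 0.0686 to 0.221, without the spread between livers). Atp6v0d2, a proton pump subunit, rested on 4 counts in NASH and 59 in steatosis, a ratio of 0.101 (exact 95% counting interval 0.0265 to 0.272, without the spread between livers). Its log2 fold change was -3.24 (95% interval -4.45 to -2.02, edgeR adjusted p = 0.0133), and its call was lost without NASH 1, NASH 2, steatosis 1 or steatosis 2. Cyp17a1, a steroid hydroxylase of the same list that was singled out after its values were seen, was above in every NASH liver without passing. It had 1.11, 4.96 and 1.91 CPM in NASH, against 0.862, 0.2997 and 0.557 CPM in steatosis (log2 fold change 2.22 with an SE of 0.57, adjusted p = 0.0534 by edgeR).

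**Figure D4:**
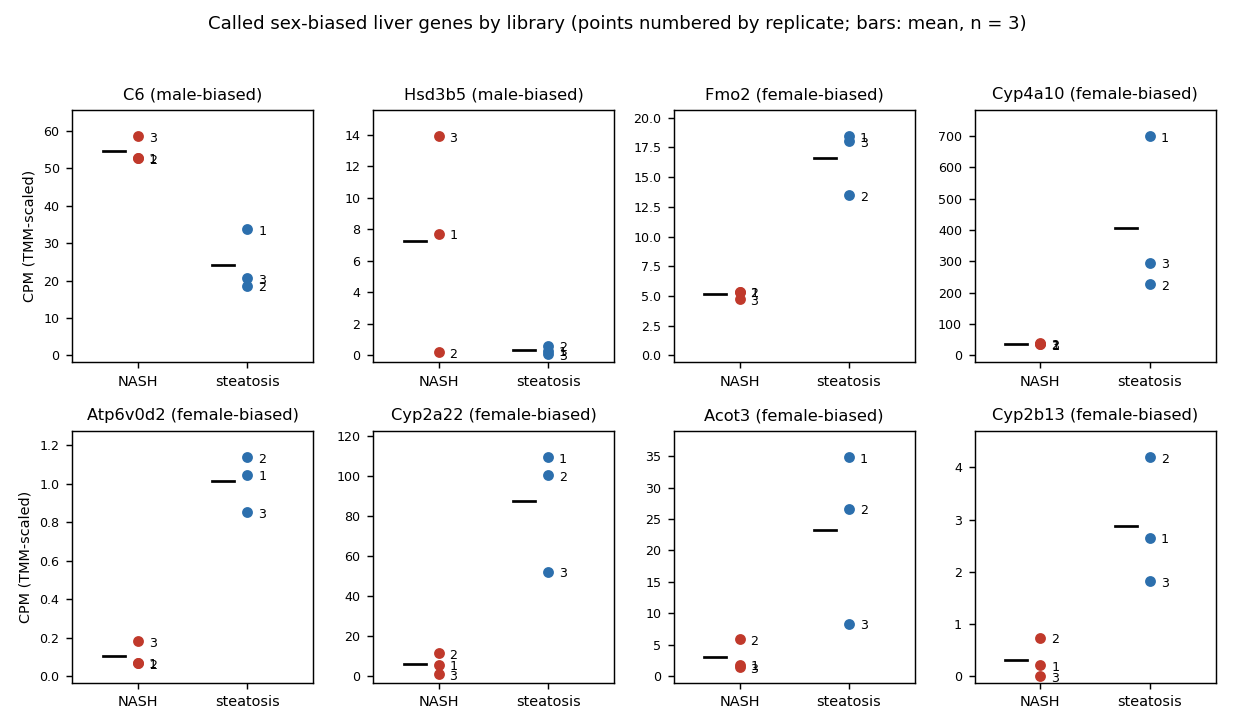
CPM (y axis, linear) of the 8 called sex-biased genes in NASH (left, red) and steatosis (right, blue) livers; points are libraries numbered by replicate and bars the mean of 3. C6 is higher in each NASH liver, Hsd3b5 in NASH 1 and NASH 3 but not NASH 2, and the 6 female-biased genes are lower in each NASH liver.

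The list of transcription factors that bind liver chromatin beside STAT5 also held the histone methyltransferases Ezh1 and Ezh2. It gave 0 calls of 21 tested by edgeR, DESeq2 and limma-voom. At an unadjusted p under 0.05, 1 was higher and 0 lower, and the median log2 fold change was -0.23. The 3 with the smallest p were the histone methyltransferase Ezh2 (log2 fold change 0.97, edgeR adjusted p = 0.130), the oestrogen receptor Esr1 (-0.58, 0.259) and Cebpb (-0.61, 0.266). Genes known to go up in mouse liver that lacks GHR, JAK2 or STAT5 gave 3 lower and 0 higher of 15 tested, against 3.33% of all tested genes called lower, with a median log2 fold change of -1.50. The count of 3 lower became 1 without NASH 1, NASH 3 or steatosis 1, 2 without steatosis 2, 5 without steatosis 3 and 0 without both rRNA-rich libraries. In that last fit the calls over all genes came to 17 higher and 19 lower, against 169 and 379 with all libraries, and with 1 library left out they ranged from 29 to 170 higher and 77 to 298 lower. Cd36, a fatty acid transporter, fell to 8.96, 10.6 and 6.72 CPM in NASH, against 37.5, 20.02 and 24.3 CPM in steatosis (log2 fold change -1.63 with an SE of 0.27, adjusted p = 0.0128 by edgeR). Plin4, a lipid droplet coat protein, fell to 24.4, 61.7 and 34.8 CPM in NASH, against 264, 161 and 133 CPM in steatosis (log2 fold change -2.20 with an SE of 0.38, adjusted p = 0.0147 by edgeR), a call lost without NASH 1, NASH 3 or steatosis 1 (0.0508, 0.0516 and 0.0541). Pdk4, a kinase that restrains glucose oxidation, had 4.17, 1.54 and 1.18 CPM in NASH against 150.3, 28.5 and 3.30 CPM in steatosis, groups that overlapped at NASH 1 and steatosis 3 (edgeR adjusted p = 0.0428), and its log2 fold change of -4.70 became -2.74 without steatosis 1 (0.137). The Pdk4 call was also lost without NASH 1, NASH 2, NASH 3 or steatosis 2 (edgeR adjusted p = 0.0734 to 0.128). Cyp2b9 and Igfbp1 belong to 2 of these lists each. Membership in a list does not tie a gene to growth hormone alone, and the part of other regulators was not tested.

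**Figure D5:**
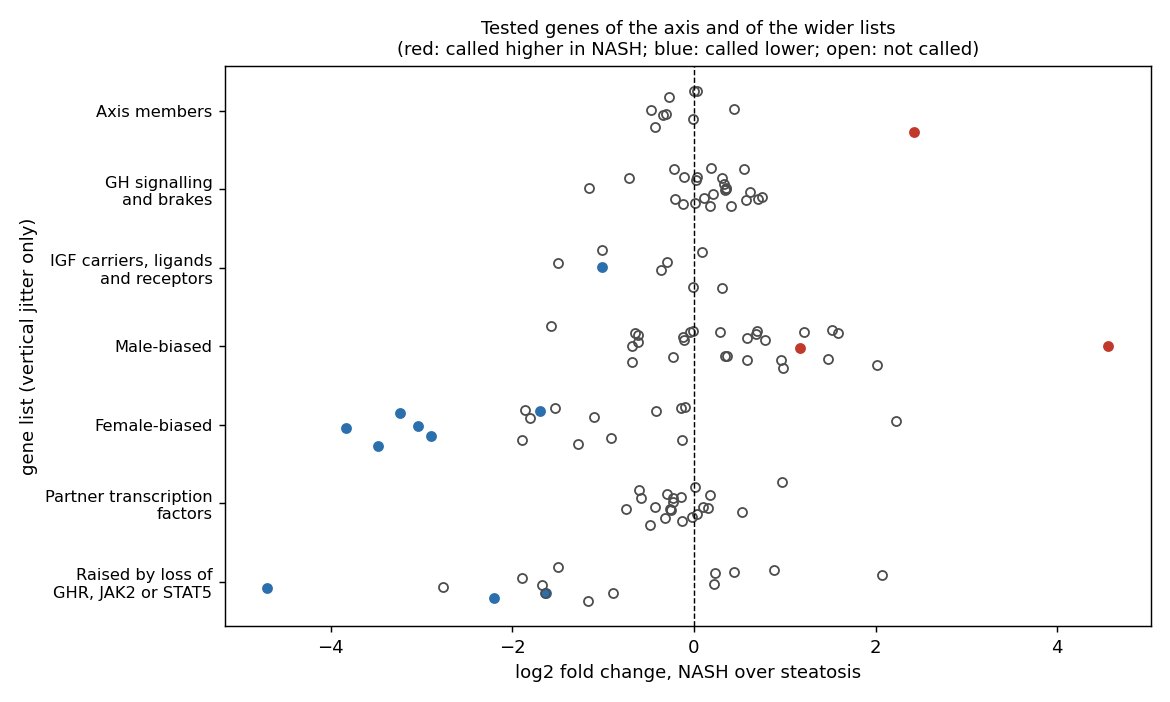
Log2 fold change of NASH over steatosis (x axis) for each tested gene of the axis and of the 6 wider lists (y axis, jittered); red marks genes called higher in NASH, blue those called lower, open circles those not called. Selenbp2 is the only filled point in the top row, and 6 of the 18 tested female-biased genes are blue.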

How the data were processed

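Per the labels' protocols, polyadenylated RNA of mouse liver was sequenced as paired reads of 150 bp. Each deposited file holds 1 library as raw counts for every Ensembl gene, made by the authors with TopHat2 and HTSeq on mm10 (GRCm38), per the submitters' processing notes. No source used here gives the annotation release, the strand setting or the treatment of reads shared between genes. Symbols were found for 37607 of 39179 identifiers, and positions and exon lengths are those of GENCODE M21.

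Counts were filtered with edgeR's default rule and scaled with TMM. The factors were 0.79 to 0.91 in NASH and 0.96 to 1.50 in steatosis. Testing used edgeR 4.0.16 in R 4.3.3 (quasi-likelihood, Benjamini-Hochberg adjusted p under 0.05). The SE is the log2 fold change over the root of F, an approximation, and intervals use the fit's degrees of freedom. DESeq2 1.42.0 and limma-voom 3.58.1 were alternatives. Log2 ratios within a library used a prior count of 2. The labels imply but do not state that livers came from separate mice, so p-values measure the spread between these samples.

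The fit was tested on simulated counts before use. It recovered 24.5% of 98 genes changed 2-fold and 96.1% of 102 genes changed 4-fold. Most simulated 2-fold changes were thus missed, so a gene that was not called is not shown to be unchanged. Counting intervals cover counting error only.

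The named genes were the 10 members, Selenbp1, from each wider list up to 6 called genes, or up to 3 of smallest p where fewer than 3 were called, and the 3 genes nearest in profile to each called member. The members and lists were chosen with earlier results of these data known.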

Additional observations from a re-analysis of the deposited data

How the results depend on the processing

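Of the 160 values of the 10 genes under 16 alternatives, 135 kept their direction and side of the threshold, 20 changed sign and 5 lost the call, all 5 of Selenbp2. With 1 library left out, log2 fold changes ran from -0.68 to -0.31 for Ghr, -0.26 to 0.26 for Jak2, -0.61 to -0.21 for Stat5a, -0.044 to 0.11 for Stat5b, -0.42 to 0.48 for Socs2, -0.78 to 0.70 for Cish, -0.44 to -0.13 for Igf1, -0.56 to -0.14 for Igfals, 0.05 to 0.84 for Bcl6, 2.07 to 2.80 for Selenbp2 and -0.12 to 0.046 for Selenbp1. Calls among the 10 genes then ran from 0 to 1 higher with 0 lower, in signalling genes from 0 to 1 higher, in IGF genes from 0 to 1 lower, in male-biased genes from 0 to 2 higher and 0 to 1 lower, in female-biased genes from 0 to 1 higher and 2 to 6 lower, and in genes raised by loss of the axis from 1 to 5 lower. Differences of the log2 ratios ran from 0.02 to 0.49 (Igf1 over Ghr), -0.46 to 0.30 (Igfals over Igf1), -1.23 to 0.39 (Socs2 over Cish), 0.25 to 0.60 (Stat5b over Stat5a), 0.08 to 0.77 (Bcl6 over Stat5b) and 1.93 to 3.11 (Selenbp2 over Selenbp1).

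Other sign changes sat near 0. Socs2 was 0.0040 with RLE factors, 0.010 with upper-quartile factors and 0.073 with other-gene library sizes (totals without mitochondrial and rRNA-like genes, no TMM), where Selenbp1 was 0.057. Jak2 was -0.011 with limma-voom and -0.0035 with no filter, where Stat5b was -0.028. Without NASH 3 and steatosis 2 together, Jak2 was -0.056, Stat5b -0.033, Socs2 0.089 and Bcl6 -0.15, Selenbp2 at 2.55 was not called, and calls came to 0 of the 10 genes, 0 IGF, 0 male-biased, 3 female-biased and 0 genes raised by loss of the axis. At an adjusted p under 0.01 there were 0 members. Signalling genes had 1 higher with DESeq2, limma-voom, RLE, upper-quartile, no filter, the stricter filter and after removal of mitochondrial and rRNA-like genes, and 1 lower with DESeq2 and no filter. Male-biased genes had 1 higher with the stricter filter, limma-voom (and 1 lower) and that removal, and 4 higher and 2 lower with DESeq2. No filter gave 11 higher and 2 lower male-biased, 1 higher and 12 lower female-biased, 3 lower IGF, and 2 higher and 10 lower genes raised by loss of the axis. DESeq2 gave 2 lower IGF genes and 5 lower of the last list, and other-gene sizes 0 IGF genes. Same-numbered NASH and steatosis libraries did not deviate together (correlations -0.012 to 0.071), so they share only a number. With the replicate block, Selenbp2 kept its call (2.47, edgeR adjusted p = 0.0434), and calls were 0 IGF, 1 higher and 1 lower male-biased, and 7 lower of the last list. The cause was not tested.

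Over all genes, other-gene library sizes moved the median log2 fold change to 0.12 and the calls to 178 higher and 222 lower, against 169 and 379, and the block gave 153 and 313. Calls over all genes came to 310 higher and 569 lower with DESeq2, 535 and 912 with no filter, and 17 and 19 without NASH 3 and steatosis 2. With 1 library left out they ran from 29 to 170 higher and 77 to 298 lower, with 61 and 120 without NASH 1, 74 and 127 without NASH 2, 89 and 137 without NASH 3, 39 and 77 without steatosis 1, 29 and 85 without steatosis 2, and 170 and 298 without steatosis 3. Jak2 rested on 36 to 82 counts a library.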
